A study of Dunaliella tertiolecta UTEX 'LB 999' with 2 samples.

Results

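The flagellar associated proteins, or FAP family, were represented by 11 of the 234 transcript contigs that the authors listed as different between 2 samples of the green alga Dunaliella tertiolecta. A contig is a transcript assembled from reads, and it belonged to the family if its gene name was FAP followed by digits. All 11 stood among the 134 contigs listed as higher at 8 h, which were 57.3% of those listed, and 0 stood among the 100 listed as lower. Strain UTEX LB-999 grew in a chemostat, at steady state and 25 °C, under 40 µmol photons m-2 s-1 in a medium of 0.5 M NaCl. The light was then raised to 400 µmol photons m-2 s-1, and messenger RNA was sequenced from 1 sample taken 8 h and 1 sample taken 4 h later. Both samples had been shifted to the higher light, so neither was an unshifted control, and the labels do not say whether they came from the same culture. The comparison asked how transcript levels at 8 h stood against those at 4 h, and with 1 library per time point no difference had a replicate check.

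Dunaliella is a unicellular alga without a cell wall that swims with a pair of flagella. The core of such a flagellum, the axoneme, is a ring of doublet microtubules around a central pair, bent by dynein motors and built by intraflagellar transport, which carries building blocks to the tip. FAP is a serial name given to proteins found in isolated flagella of Chlamydomonas reinhardtii, a related alga, so the family is defined by where its members were found and not by a shared sequence or function. The names used here are those of the best protein match in Chlamydomonas, and roles given below are those known in Chlamydomonas. Of the 11 contigs, 9 were described by the authors only as a flagellar associated protein. The other two carried a second description, FAP32 as intraflagellar transport protein 46 and FAP264 as a protein of the RNI-like superfamily, which has a fold of leucine-rich repeats. The 11 contigs matched 11 different proteins, with E values of at most 4e-30.

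Levels are given in RPKM, reads per kilobase of contig scaled by the size of the library, as the authors deposited them. The columns of levels carried headings that name neither sample, and they were assigned to 8 h and 4 h from the contrast the authors wrote beside their ratio. Reads were recovered from RPKM and contig length for libraries of 674129 reads at 8 h and 556037 reads at 4 h. These library sizes were themselves calculated, from the levels, lengths and raw counts of the listed contigs. Intervals are 95% exact intervals on these reads and cover counting error only.

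Summed over the family, the level was 246 RPKM at 8 h and 73.1 RPKM at 4 h, a ratio of 3.36. In reads, the 11 contigs held 201.4 reads at 8 h and 44 at 4 h, or 299 and 79.1 per 1000000 library reads, a ratio of 3.77 (interval 2.71 to 5.35). The family supplied 4.08% of the reads of all listed contigs at 8 h and 1.12% at 4 h. These ratios describe contigs that had entered the list by differing at least 2-fold with a p under 0.05. For 10 of the 11 this took a ratio above 2-fold, up to 4.57-fold for FAP81, as described below. Contigs of lower 4 h level need larger ratios to be listed. The median 4 h level was 6.02 RPKM in the family and 8.53 RPKM over the 134 contigs listed as higher. The part of this in the comparisons that follow was not tested. In RNA of a whole culture, more cells with a transcript and more of it per cell cannot be told apart. The single ratios ran from 2.14 to 6.60, with a median of 3.96, against a median of 2.75 over all 134 contigs listed as higher. The ratio was at least 4-fold in 5 of the 11, against 18.7% of the 134 contigs listed as higher and 10.7% of all 234. Its interval lay above 1 in 7 of the 11, against 50% of the 134 and 28.6% of the 234. An FDR under 0.05 in the authors' deposited table was reached by 5 of the 11, against 32.1% of the 134 and 18.4% of the 234. The contigs listed as lower, which none of these counts can include, are part of the 234. The FDR and interval counts did not hold the same members. FAP276 had an FDR under 0.05 although its interval, 0.799 to 16.9, reached below 1. FAP81, FAP236 and FAP264 had intervals above 1 and no FDR under 0.05. On the same reads, 16 at 8 h and 2 at 4 h, FAP115 had such an FDR and the longer FAP81 did not. The authors' p-values were matched by a test on RPKM values, described below, so they also depended on contig length. Since the family was proposed with these results known, the counts are descriptions.

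**Figure D1:**
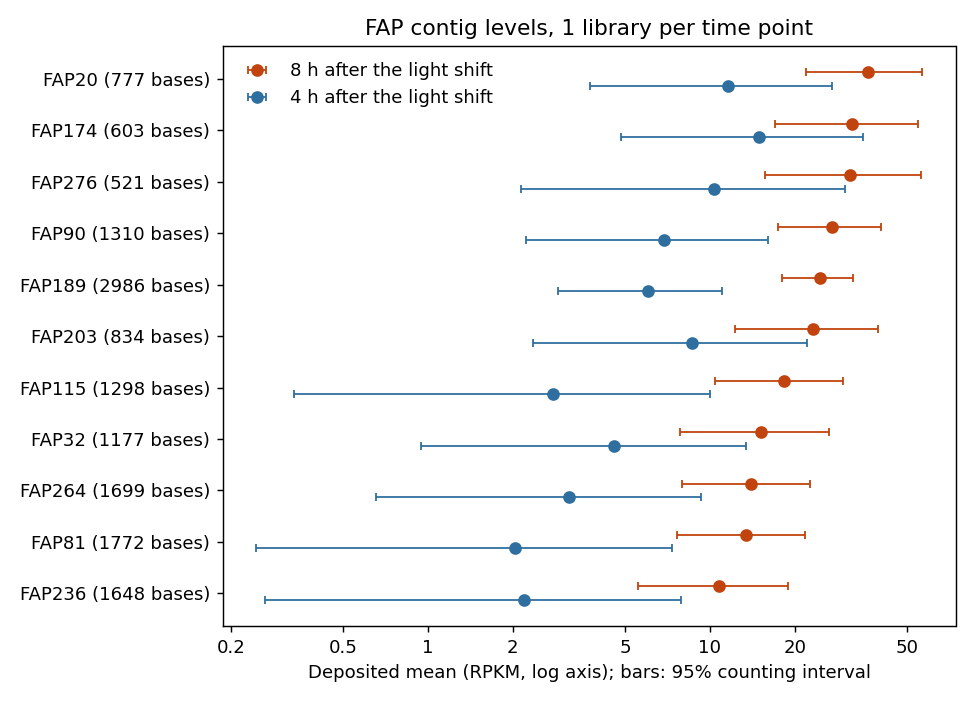
Deposited level of each FAP contig at 8 h (red) and 4 h (blue) in RPKM on a log axis, in order of the 8 h level, with contig length in bases. Points are the value of 1 library and bars the 95% exact counting interval; every 8 h point lies right of its 4 h point, and the 8 h points span 10.8 to 36.3 RPKM.

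Members that line or close the doublet microtubules formed the largest group with a known place, with 4 contigs. FAP20 is a protein of the inner junction, the seam where the incomplete B tubule meets the A tubule. It stood at 36.3 RPKM at 8 h and 11.6 RPKM at 4 h, on 19 and 5 reads, which was 3.13-fold higher (interval 1.13 to 10.7). FAP20 had the highest level of the family at 8 h. FAP276, also of the inner junction, stood at 31.3 RPKM at 8 h and 10.4 RPKM at 4 h. Its contig of 521 bases was the shortest of the family and carried 11 reads at 8 h and 3 at 4 h, so that 1 read was worth 2.85 RPKM at 8 h and 3.45 RPKM at 4 h. The 3.02-fold ratio of FAP276 therefore had an interval of 0.799 to 16.9, which reached below 1.

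FAP115 and FAP90 belong to the microtubule inner proteins, which bind the wall of the doublets from inside. FAP115 stood at 18.3 RPKM at 8 h and 2.77 RPKM at 4 h, on 16 and 2 reads, and its 6.60-fold ratio was the largest of the family (interval 1.55 to 59.2). FAP90 stood at 27.2 RPKM at 8 h and 6.86 RPKM at 4 h, on 24 and 5 reads, a ratio of 3.96 (1.48 to 13.3). For FAP90 and FAP115 the counting intervals of the 2 levels did not overlap between libraries, whereas for FAP20 and FAP276 they did. Together the 4 doublet contigs held 70 reads at 8 h and 15 at 4 h, a ratio of 3.85 (2.18 to 7.24). RIB72, an inner protein of the same doublets that is not named FAP, was 3.61-fold higher on 35 reads at 8 h and 8 at 4 h.

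The central apparatus, the pair of microtubules in the middle of the axoneme with its projections, was represented by FAP81 and FAP174. FAP81 stood at 13.4 RPKM at 8 h and 2.03 RPKM at 4 h, the lowest 4 h level of the family. It had the same reads as FAP115, 16 at 8 h and 2 at 4 h, hence the same ratio and interval, and differed from it in level because its contig of 1772 bases was longer than the 1298 bases of FAP115. FAP174, a small protein of the central pair related to the MYC-binding protein of animals, stood at 32.0 RPKM at 8 h and 14.9 RPKM at 4 h. Its 4 h level was the highest of the family and its 2.14-fold ratio the smallest, with an interval of 0.717 to 7.68 on 13 and 5 reads. The interval of FAP81 held the ratio of FAP174, and that of FAP174 held the ratio of FAP81, so the order of the 2 ratios was not resolved at this depth. The pair together gave 29 reads at 8 h and 7 at 4 h, a ratio of 3.42 (1.46 to 9.24).

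One member, FAP32, is a transport protein and not a part of the axoneme. By its description it is IFT46, a subunit of the IFT-B complex, which moves cargo outward along the flagellum. It stood at 15.1 RPKM at 8 h and 4.58 RPKM at 4 h, on 12 and 3 reads, a ratio of 3.30 (0.890 to 18.2). IFT80, a subunit of the same complex, stood at 11.3 RPKM at 8 h and 2.57 RPKM at 4 h, a ratio of 4.40 (1.26 to 23.6) on 16 and 3 reads. The interval of each held the ratio of the other.

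For 4 members no place in the flagellum is given here. FAP189 had the most reads of the family, 49.4 at 8 h and 10 at 4 h, on its longest contig of 2986 bases. It stood at 24.5 RPKM at 8 h and 6.02 RPKM at 4 h, a ratio of 4.07 with the narrowest interval among single members, 2.02 to 8.95. Its raw total was not whole, as when reads are divided among contigs that share sequence, and the totals of the other 10 members were whole. FAP264 stood at 14.0 RPKM at 8 h and 3.18 RPKM at 4 h, a ratio of 4.40 (1.26 to 23.6), and was the 1 member assembled as one of 3 transcripts of its locus. FAP236 had the lowest 8 h level, 10.8 RPKM, against 2.18 RPKM at 4 h, on 12 and 2 reads, a ratio of 4.95 (1.10 to 45.5). FAP203 stood at 23.1 RPKM at 8 h and 8.63 RPKM at 4 h, on 13 and 4 reads, a ratio of 2.68 (0.828 to 11.3). As a group these 4 contigs held 90.4 reads at 8 h and 19 at 4 h, a ratio of 3.92 (2.36 to 6.79). The groups with a place or role given had ratios on reads from 3.30, for FAP32 alone, to 3.85 for the doublet contigs.

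**Figure D2:**
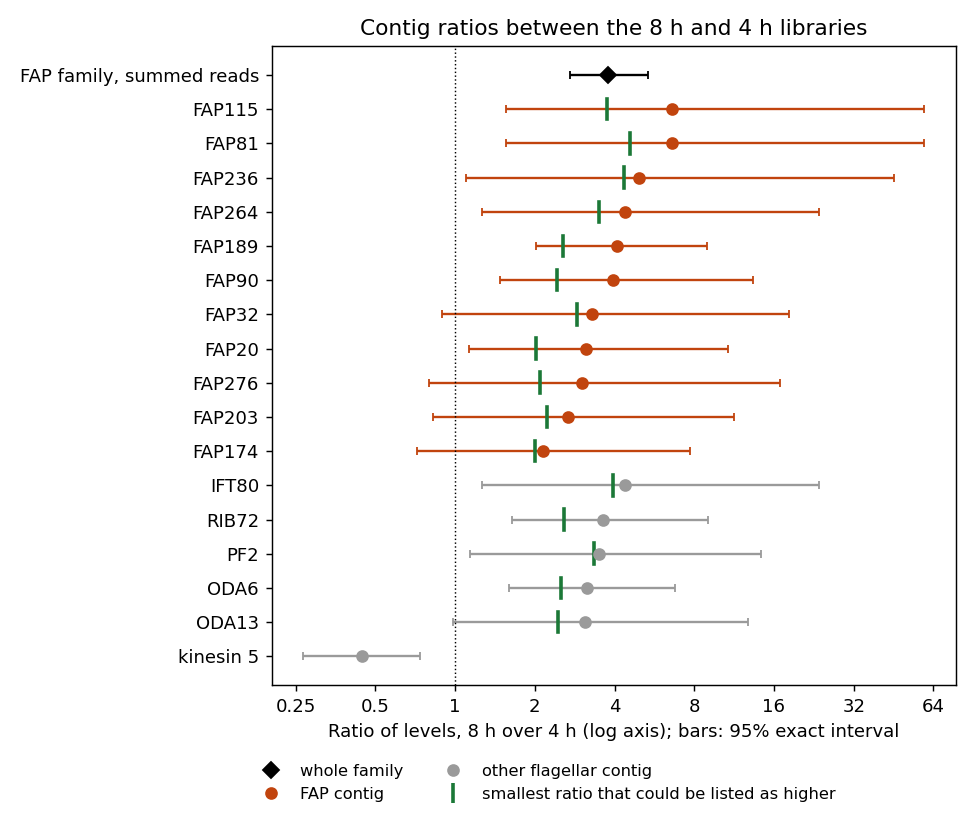
Ratio of levels, 8 h over 4 h, on a log axis for the family as a whole (black diamond, summed reads), its 11 contigs (red) and the other listed flagellar contigs (grey), with 95% exact intervals. Green bars mark the smallest ratio at which a contig of that 4 h level could have been listed as higher; the family stands at 3.77, and each of the 11 intervals includes that value.

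The deposited levels of the members spanned a wider range at 4 h, where reads were fewer, than at 8 h. Whether the difference in spread exceeded counting error was not tested. The highest level was 3.36 times the lowest at 8 h, FAP20 against FAP236, and 7.35 times the lowest at 4 h, FAP174 against FAP81. From the top down, the order at 8 h was FAP20, FAP174, FAP276, FAP90, FAP189, FAP203, FAP115, FAP32, FAP264, FAP81 and FAP236. No 2 neighbours in that order were separated by their counting intervals, and FAP20 alone lay wholly above other members, namely FAP81 and FAP236. At 4 h the order was FAP174, FAP20, FAP276, FAP203, FAP90, FAP189, FAP32, FAP264, FAP115, FAP236 and FAP81, and all intervals overlapped. The same 3 contigs, FAP20, FAP174 and FAP276, led at both times, and they were the 3 shortest of the family at 777, 603 and 521 bases. The part of contig length in these levels was not tested. At 4 h, 10 of the 11 members rested on 5 reads or fewer.

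The ratios of the members tended to be larger where their 4 h level was lower, and so did the limit for being listed. The 4 h level is also the denominator of each ratio, and it rested on 2 to 10 reads. The part of this in the relation was not tested. The authors' p-values for the 11 contigs were matched within 0.0389% by a Wald test that treats RPKM values as Poisson counts, which sets the smallest ratio that could reach p = 0.05 at a given 4 h level. The 4 members with the lowest 4 h levels, FAP81, FAP236, FAP115 and FAP264 at 2.03 to 3.18 RPKM, had ratios of 4.40 to 6.60. At those levels a contig had to be at least 3.48- to 4.57-fold higher to be listed at all. The other 7 members, at 4.58 to 14.9 RPKM at 4 h, had ratios of 2.14 to 4.07 and limits of 2.00 to 2.89. FAP81 could enter the list only at 4.57-fold or more, whereas FAP174 could enter at 2.00-fold. FAP174 lay closest to its limit, at 2.14 against 2.00, followed by FAP236 at 4.95 against 4.35 and FAP32 at 3.30 against 2.89. FAP115 lay farthest above, at 1.75 times its limit of 3.76. Members of the family below these limits are not in the lists, and their levels were not analysed here.

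**Figure D3:**
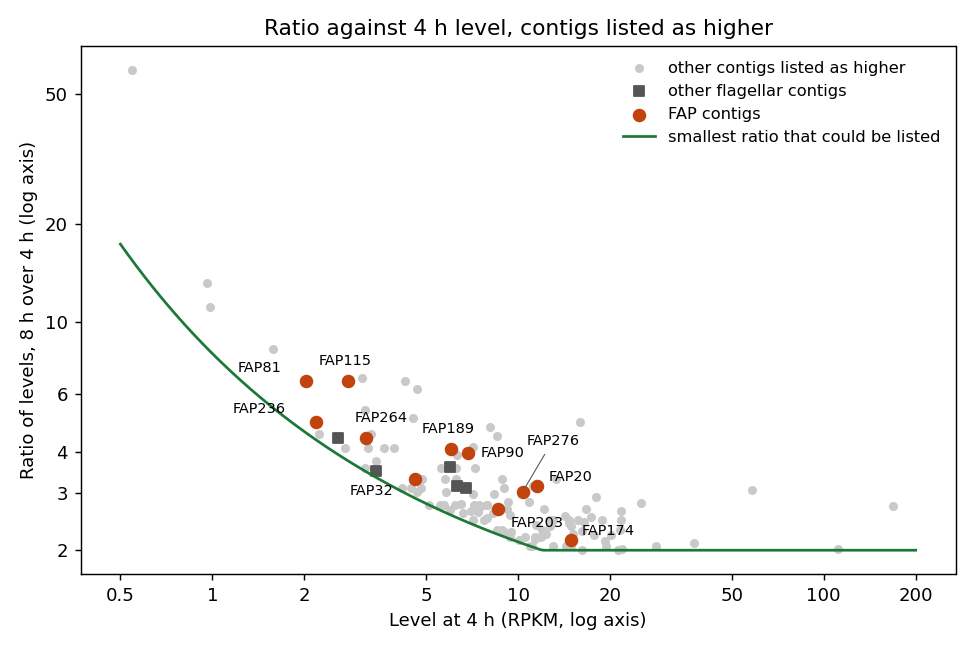
Ratio of levels, 8 h over 4 h, against the 4 h level in RPKM, both on log axes, for the 134 contigs listed as higher: FAP contigs (red), other flagellar contigs (dark squares) and the rest (grey). The green line is the smallest ratio that could be listed; 0 of the 134 contigs lie below it, and the FAP contigs with the lowest 4 h levels stand highest, at 4.40 to 6.60.

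Among all listed contigs 17 matched the names or description words for flagella, cilia, dyneins, tubulins and kinesins, and 6 of them were not of the FAP family. Against 57.3% of all 234 listed contigs, 5 of these 6 were higher at 8 h. Besides RIB72 and IFT80, they were PF2, a subunit of the dynein regulatory complex that links neighbouring doublets, and the outer-arm dynein subunits ODA6 and ODA13. PF2 stood at 12.0 RPKM at 8 h and 3.43 RPKM at 4 h, a ratio of 3.51 (1.14 to 14.3). ODA6, an intermediate chain, was 3.15-fold higher (1.59 to 6.78), and ODA13, a light chain, 3.09-fold (0.985 to 12.8). The 5 contigs together gave 125 reads at 8 h and 30 at 4 h, a ratio of 3.44 (2.29 to 5.30), beside 3.77 (2.71 to 5.35) for the FAP family. The intervals overlapped over most of their width. The exception was a kinesin 5 contig, a motor of the mitotic spindle in other organisms, which had 26 reads at 8 h and 48 at 4 h and was 2.24-fold lower (1.36 to 3.76). The 118 contigs listed as higher with no flagellar match gave a summed ratio of 2.64 (2.46 to 2.84). This interval overlapped that of the FAP family only between 2.71 and 2.84, and neither held the ratio of the other. The difference was not tested, since all these contigs had been selected by their ratio.

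The contigs nearest to the family ratio of 3.36 outside it were FKB53, an FK506-binding protein, RFS1, described as a lumazine-binding protein, and MRPS19, a ribosomal protein S19, each at 3.30-fold. Likeness was measured over the 2 libraries, as the difference of log2 ratios, which was 0.03 for each. FKB53 had 20 reads at 8 h and 5 at 4 h, RFS1 had 16 and 4, and MRPS19 had 12 and 3. In all, 6 contigs with a symbol outside the family had 4 reads at 8 h for each read at 4 h, as had FAP32, so the 3 named are tied with others.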

How the data were processed

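Stranded mRNA libraries were prepared from 1 RNA sample at 8 h and 1 at 4 h, per the labels' protocols. Partek is named in the submitters' processing notes, without a version. The aligner, reference build and assembler were not given in the sources used here. Only contigs past the authors' limits, a fold of at least 2 and a p under 0.05, were in the files, and others were not analysed here. The deposited values are RPKM means, their ratio, its natural log, a signed fold score, and the p-value and FDR of the authors' Poisson model. The deposited raw reads are estimated counts and are not always whole. In the lower list the authors wrote the fold as a signed score.

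Of the 234 contigs, 161 had whole raw totals. What 1 read is worth was taken as the median of RPKM times length over the largest raw count, and reads were rounded for intervals (Clopper-Pearson for ratios, tested on simulated data, and exact Poisson for levels). The simulated data were not passed through the authors' limits, so they do not show the coverage for contigs listed by their ratio. No difference between the time points was tested. A Wald test on RPKM values was computed only to match the authors' p-values and to find the smallest ratio that could be listed. The ratio of each contig is that of the RPKM means. The members, the flagellar words and the alternatives were chosen with earlier results of these data known. Genes named are all FAP contigs, all contigs with a flagellar match and the 3 nearest in log2 ratio. Groups by place in the flagellum were formed after the values were seen. A count of 0 was taken to allow up to 3 reads. Computations used scipy 1.17.1, pandas 2.3.3 and numpy 2.4.6 under Python 3.11.15, and plots matplotlib 3.10.9.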

Additional observations from a re-analysis of the deposited data

Results flagged for a closer look

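The authors' raw totals for the FAP contigs held reads from neither library, a signal outside the compared samples. Some members lay above the 3 reads that a single count of 0 was taken to allow. Over the family 30.1 of 275.5 reads lay outside both libraries (10.9%), beside 9.72% over all contigs listed as higher and 15.2% over all listed contigs. All 11 members had at least 1 such read, as had 208 of the 234 listed contigs (88.9%), so such reads are general to the lists. More than 3 were found for FAP90 with 5, FAP20 and FAP174 with 4 each, and FAP189 with 3.11, whose raw total was not whole. The other members had 3 or fewer. These reads were summed over 2 further libraries, given below, so a limit for a single count does not set the flagged members apart from the others.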

How the results depend on the processing

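The family ratio on summed RPKM, 3.36, became 3.24 to 3.96 under the 23 alternatives. All 23 lay inside 2.71 to 5.35, the interval of the ratio on reads, as the ratio on RPKM has no interval of its own. All alternatives used contigs listed as higher by at least 2-fold, so none could have brought the ratio to 1. Leaving out each contig in turn gave 3.24 (without FAP115) to 3.68 (without FAP174). The alternatives included pooling by reads, geometric mean or median, pseudocounts of 1 and 0.1 RPKM, at least 10 reads, E values under 1e-20, a wider name match, collapsed best hits and, chosen after seeing the data, whole raw totals, single-transcript loci and no FAP32. All 11 contigs met the filters on reads, E value, names and best hits, so these left the ratio at 3.36. All 33 alternative values of single contigs stayed inside their intervals, and a pseudocount of 1 RPKM gave ratios of 2.07 to 5.11. This was a weak check, since the alternatives used the same reads. Even the narrowest interval, that of FAP189, ran from 2.02 to 8.95. The number of FAP contigs listed as higher, 11 by the authors' limits, was 5 with a 4-fold limit, 5 at an FDR under 0.05 and 0 at an FDR under 0.001. For all flagellar contigs 16 became 6 with a 4-fold limit and 5 at an FDR under 0.05, the same 5 FAP contigs. Of the 134 contigs listed as higher, 18.7% met the 4-fold limit and 32.1% had an FDR under 0.05. These limits keep fewer contigs by construction. No paired analysis was possible because there was 1 library per time point, and for the same reason no replicate could be left out. Depth limits every single ratio: 4 of the 11 intervals reached below 1.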

Other observations

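The reads outside the 8 h and 4 h libraries could be split further. In all 144 listed contigs with a whole raw total and at least 1 such read, the raw and normalised totals were met by whole reads, within 0.02, from 2 further libraries of 178820 and 241497 reads. The sizes of these libraries were estimated from the 21 of these contigs with exactly 1 such read, so the match is in part by construction. The labels used here describe neither library, so the 2 are given as values only. The FAP family held 25.1 reads in the smaller of them, or 140 per 1000000 library reads (exact Poisson interval 90.5 to 206), with reads in all 11 members. It held 5 reads in the larger one, or 20.7 per 1000000 (6.72 to 48.3), with reads in 4 members. The same measure was 299 per 1000000 (258 to 342) at 8 h and 79.1 per 1000000 (57.5 to 106) at 4 h. All listed contigs together gave 6559 and 1731 reads per 1000000 in the smaller and larger library, and 7313 at 8 h and 7068 at 4 h. As a share of the reads of all listed contigs, the family was 2.14% in the smaller and 1.20% in the larger library, beside 4.08% at 8 h and 1.12% at 4 h.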
